A study of Mus musculus with 4 samples.

Results

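Fbw7-deficient LSK cells were compared with Fbw7-deficient myeloid progenitors (MP) from the same mouse bone marrow, that is, the stem cell compartment with the progenitor compartment below it, both lacking the ubiquitin ligase subunit Fbw7. The comparison used 2 of the 4 arrays in the study. Each gene was measured as the log2 intensity on the Fbw7-deficient LSK array minus the log2 intensity on the Fbw7-deficient MP array. Every gene was represented by 1 probe set, and 12239 of the 18193 genes on the array were kept because their highest value on the 4 arrays reached an intensity of 157, the median of all values. Just inside that limit stood Lrfn3 and Aym1, with highest intensities of 156.7 and 156.7 and log2 differences of 0.08 and 0.01, and just outside stood Amelx (156.6, -0.15) and Efna2 (156.7, -0.07).

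RNA of sorted LSK and MP cells of both genotypes, wild-type and Fbw7-deficient, was hybridised to Affymetrix arrays in the study, with 1 array for each of the 4 pools. LSK cells lack lineage markers and carry c-Kit and Sca1, and MP cells lack lineage markers, carry c-Kit and lack Sca1. All mice of both genotypes, the wild-type controls included, had received 3 intraperitoneal injections of polyI:C, a synthetic double-stranded RNA to which cells respond with interferon, at 20 ug per g on alternate days, and their marrow was taken 2 weeks after treatment. Marrow of 3 mice was pooled for each genotype before the sort, so an array gives no spread between animals. The labels give the genotype as Fbw7 deficient, without an allele or the animals' age. With 1 array a group there was no replicate check and no test in any comparison, and every value below describes these 4 pools.

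Fbw7 is the substrate-binding subunit of an SCF ubiquitin ligase that marks cyclin E, MYC, Notch and other growth regulators for destruction. The LSK fraction of bone marrow holds the hematopoietic stem cells and the multipotent progenitors, among them the lymphoid-primed ones that express Flt3. The MP fraction holds the progenitors of granulocytes and monocytes, of red cells and megakaryocytes, and of mast cells, basophils and eosinophils.

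The stem and LSK markers separated the deficient populations clearly, and the myeloid progenitor markers did so less. All 8 stem and LSK markers on the array (Mecom, Hlf, Procr, Slamf1, Tek, Flt3, Mmrn1 and Meis1) were higher on the deficient LSK array, and their summed intensity was 11737 there against 2096 on the deficient MP array. The 6 myeloid progenitor markers (Mpo, Elane, Prtn3, Ctsg, Ms4a3 and Cebpa) were all lower on the LSK array, with sums of 99723 and 138359. In wild-type cells these sums were 52740 in LSK and 135864 in MP, so the deficient populations lay closer together in them. Only Elane (-1.08) and Ms4a3 (-1.11) of the 6 were lower by 2-fold or more. Of the 6 erythroid markers 2, Slc4a1 and Epb42, were higher on the deficient LSK array. The erythroid sums were 18475 in deficient LSK and 31926 in deficient MP, against 4592 and 14320 in the wild-type pair. Of the 4 megakaryocyte markers 1, Vwf, was higher, with sums of 3874 and 4852, against 9772 and 7532 in wild-type cells. Sca1 itself was not analysed here. Because whole populations were measured, fewer cells of a type and less RNA per cell cannot be told apart in any value that follows.

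Markers of mature blood cells and of stromal cells were also read on both arrays. A lineage-negative sort should remove several of these types, whereas mast cell and basophil progenitors belong to the MP fraction. All 5 neutrophil markers (S100a8, S100a9, Ltf, Camp and Ngp) were higher on the deficient LSK array, with sums of 112694 in LSK and 94802 in MP, against 57256 and 85878 in the wild-type pair. The 3 plasma cell markers summed to 3811 on the LSK array and 847 on the MP array, the 3 B cell markers to 662 and 506, the 5 macrophage markers to 1823 and 2416, and the 3 mast and basophil markers to 3381 and 7823. The 4 T and NK markers summed to 567 and 467, and of these only Cd3e passed the limit of 157, while Cd3d, Cd3g and Gzma stayed below it. The 2 dendritic markers summed to 395 and 279 and the 5 stromal markers to 2045 and 3435, with Siglech, Cdh5 and Cxcl12 below the limit on both. Of the 4 genes on the array read for the lineage gate, Itgam, which encodes the lineage marker CD11b, was also below it, at 78.1 and 62.7. The other 3 were above the limit on both arrays: Ptprc at 10362 and 5608, Tfrc at 7004 and 12956, and Cd3e at 303 and 250. The part of such cells in the gene differences below was not tested.

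The deficient pair was close in its 3' bias and less so in its spiked controls. Control probe sets at the 3' end read above those at the 5' end by ratios of 2.75 and 2.95 for Gapdh and 2.89 and 2.99 for Actb on the deficient LSK and MP arrays. On the wild-type pair these ratios were further apart, at 4.30 and 2.60 for Gapdh and 3.53 and 2.67 for Actb, so the wild-type LSK values used for orientation below came from the array with the strongest 3' bias. Between the deficient arrays the 24 poly-A control probe sets differed by a median log2 value of 0.85 and the 18 hybridisation controls by one of 0.21, both higher on the LSK array. The median log2 intensity of the poly-A controls was 9.42 on the deficient LSK array and 8.67 on the deficient MP array. On the wild-type LSK and MP arrays it was 9.48 and 9.28, so deficient MP had the lowest value of the 4. Whether either set of controls moved with a gene difference was not tested.

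Fbxw7, which encodes Fbw7, had an intensity of 1103 in Fbw7-deficient LSK, 958 in Fbw7-deficient MP, 1355 in wild-type LSK and 691 in wild-type MP. Its log2 difference between the deficient populations was 0.20, and the only other probe set above the limit gave 0.32. Where these probes lie relative to the deleted part of the gene was not established, and the readings therefore do not check the genotype labels.

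Most genes had nearly the same level in both deficient populations. The log2 difference had a median of 0.01 over the 12239 genes, quartiles of -0.18 and 0.24 and a standard deviation across genes of 0.51, and 10482 genes (85.6%) lay within 1.5-fold. In Fbw7-deficient LSK, 473 genes (3.86%) exceeded their Fbw7-deficient MP value by 2-fold or more, and 200 (1.63%) lay below it by as much; 2-fold is the size called higher or lower in the counts from here on. Past 4-fold there were 79 higher and 42 lower genes, and past 8-fold 25 and 9. For 122 of the higher genes the MP value, and for 40 of the lower genes the LSK value, lay under the limit of 157, so the exact fold of these is not established. Where a higher gene had another probe set above the limit, all its other probe sets pointed the same way in 176 of 210 genes and another also passed 2-fold in 97. For the lower genes these counts were 73 and 48 of 80.

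**Figure D1:**
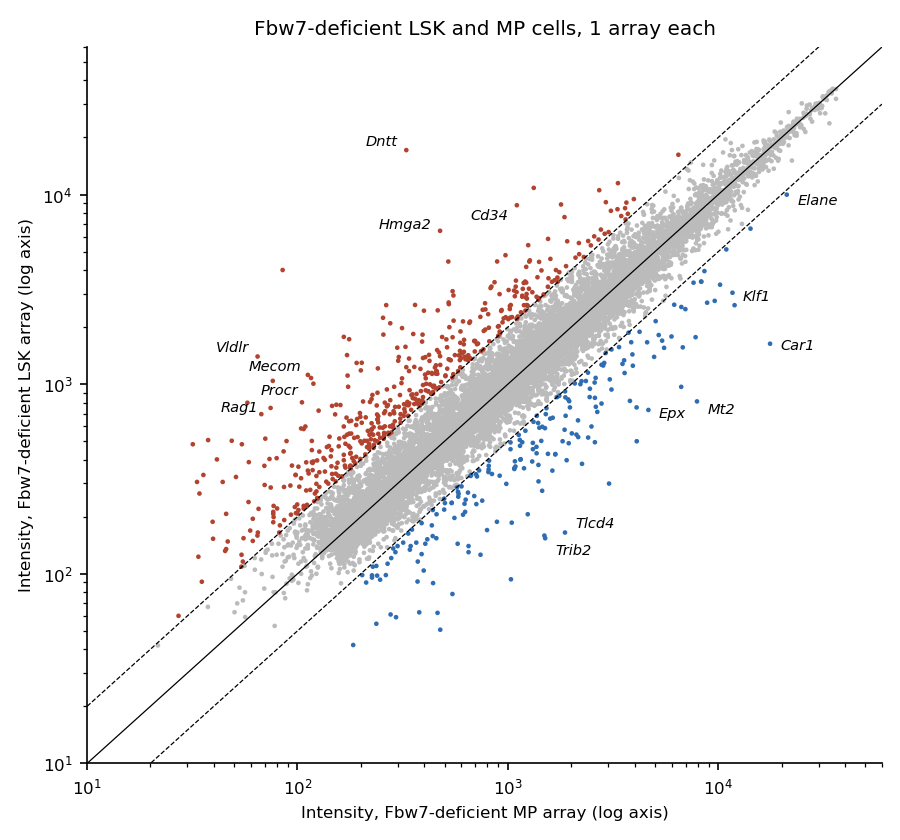
Intensity of each of the 12239 genes on the Fbw7-deficient MP array (horizontal, log axis) and the Fbw7-deficient LSK array (vertical, log axis), 1 array each. Red points are the 473 genes at least 2-fold higher and blue points the 200 genes at least 2-fold lower in LSK, the dashed lines mark 2-fold, and labelled genes such as Dntt, Mecom, Car1 and Trib2 lie far outside the grey band.

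Among the largest differences toward LSK, Dntt, which encodes the terminal transferase that adds bases at the joints of antigen receptor genes, had intensities of 17155 in deficient LSK, 329 in deficient MP, 14365 in wild-type LSK and 794 in wild-type MP. Its 5.70 was the largest log2 difference of all, and its other probe sets gave 3.54 and 5.93; the probe set used is of the kind that can share sequence with other transcripts. The transcript 1810073O08Rik came next (3999 and 85.0 in deficient LSK and MP, log2 5.56) and is named here outside the naming rule, which leaves out clone names, after its values were seen. Vldlr, which encodes a lipoprotein receptor, followed at 1399 and 64.6 (4.44). Hmga2, a chromatin protein of fetal and young stem cells, reached 6439 against 476 (3.76), and its other probe sets gave 3.00, 2.01 and 2.75. Also among the 15 largest were Cobll1 (3.92), Sema3d (3.75), Gpr171 (3.42), Msrb3 (3.37), Pglyrp2 (3.37), Snn (3.33, with another probe set at 0.07), Gcnt2 (3.31) and Ndn (3.28), a growth-restraining gene of stem cells. Rag1 and 3 of the GIMAP genes, described below, completed them. Averaged over all their probe sets, Gcnt2 differed by 0.89, less than 2-fold, and Cobll1 by 2.07.

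Among the 15 largest differences toward MP, Car1, the carbonic anhydrase of red cell precursors, had intensities of 1634 in deficient LSK, 17625 in deficient MP, 1194 in wild-type LSK and 14322 in wild-type MP, a log2 difference of -3.43 between the deficient arrays. Mt2, a metallothionein, was at 811 and 7921 (-3.29), and Sphk1, a kinase that makes sphingosine phosphate, at 500 and 4097 (-3.04). Trib2, a pseudokinase, was at 154 and 1504 (-3.29), Cited4 at 159 and 1491 (-3.22), Myh10, a non-muscle myosin, at 968 and 6665 (-2.78) and Atp1b2 at 299 and 3026 (-3.34, with another probe set at -0.32). The others were Tlcd4 (-3.50), Hpn (-3.47), Asb17 (-3.24), Reps2 (-2.90), Trgv4 (-2.80), Epx (-2.67), Sh2d4a (-2.60) and Garem1 (-2.60). Trgv4, a T cell receptor gamma segment, stood out among them in that both wild-type arrays were below the limit, at 71.3 and 67.1, while deficient MP was at 545. Its probe set, like that of Dntt, is of the kind that can share sequence with other transcripts, as are those of Trib2, Vldlr and Ndn.

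To describe the populations by function, 38 gene lists with 1000 distinct genes were read, of which 913 were on the array and 832 passed the limit. Counts below are out of the members that passed, and the medians are to be read beside 3.86% higher, 1.63% lower and a median of 0.01 over all genes.

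**Figure D2:**
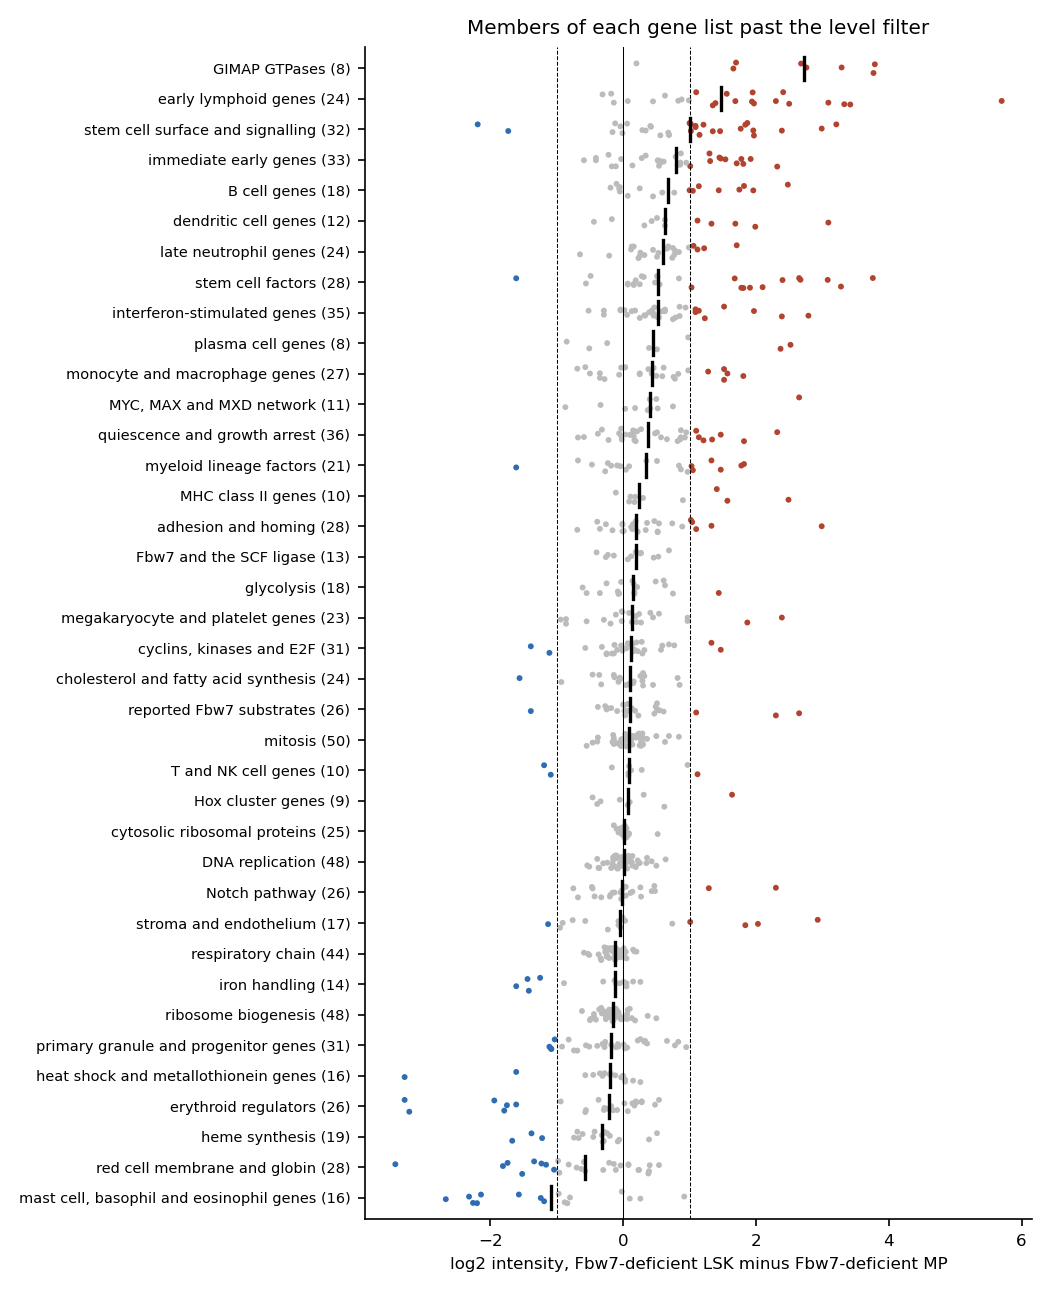
Log2 intensity of Fbw7-deficient LSK minus Fbw7-deficient MP for each list member past the level limit (1 point a gene, number of members in brackets, black bar the median). Dashed lines mark 2-fold, with red and blue points beyond them; the GIMAP GTPases lie furthest to the right (median 2.72) and the mast cell, basophil and eosinophil genes furthest to the left (median -1.08, or -0.52 without the limit).

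Transcription factors of hematopoietic stem cells were higher in the deficient LSK population. Of 29 such genes on the array 28 passed the limit, of which 12 were higher by 2-fold or more and 1 lower, with a median log2 difference of 0.53, or 1.35 over the members that reached the upper quartile of all values. Mecom, the locus of the stem cell factor EVI1, was at 1006 in deficient LSK and 119 in deficient MP (log2 3.08), and at 3043 and 145 in the wild-type pair (4.39). Hlf, which marks long-term stem cells, was at 1677 and 391 (2.10), and at 5515 and 478 in wild-type cells (3.53). Both genes thus separated the populations in either genotype, and their LSK value was lower in the deficient pool than in the wild-type pool. Meis1, a Hox cofactor, followed at 2450 and 464 (2.40, other probe sets 1.78 and 0.44), Mycn, a MYC family member, at 1976 and 314 (2.65, another probe set -0.04), and Zfp521 at 324 and 51.0 (2.67, another 0.45). For Mycn and Zfp521 the probe sets thus disagreed in size. Erg was at 2672 and 779 (1.78), Msi2, an RNA-binding protein, at 4431 and 1264 (1.81), Sox4 at 5837 and 1552 (1.91) and Etv6 at 7395 and 3627 (1.03). Gfi1b, a repressor of red cell and platelet lineages, was the member that went the other way, at 847 and 2592 (-1.61). Gata2, shared by stem cells and mast cell progenitors, was at 1550 and 1480 (0.07), Tal1 at 2579 and 3797 (-0.56), and Gata3 was below the limit on both deficient arrays, at 79.9 and 56.3, but at 225 on the wild-type LSK array. Of the Hox cluster genes 9 of 25 passed the limit, and Hoxa9 alone was at least 2-fold higher (9114 and 2922, log2 1.64; another probe set gave 0.47).

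Surface and signalling genes of stem cells were higher in 16 of 32 cases and lower in 2 by 2-fold or more. Their median was 1.01, and 0.69 without the level limit. Procr, the protein C receptor that marks stem cells, was at 1078 and 116 in the deficient pair and at 2270 and 187 in the wild-type pair (log2 3.21 and 3.60). Cd34 had intensities of 8783 in deficient LSK, 1103 in deficient MP, 12745 in wild-type LSK and 6491 in wild-type MP. The deficient populations therefore differed by a log2 value of 2.99 and the wild-type populations by 0.97, and it was the deficient MP array that was low. Slamf1, which encodes CD150, was at 556 and 279, a 1.99-fold difference, and Cd48, which long-term stem cells lack, at 8475 and 3606 (1.23). Selp was at 1557 and 298 (2.39) and Angpt1, the ligand of the Tie2 receptor, at 3213 and 827 (1.96, another probe set 0.48). Mmrn1 was at 367 and 101 (1.87) and Pdgfrb at 598 and 166 (1.84). Tek, which encodes Tie2, was at 169 and 105 (0.69). Kit, the receptor used in the gate of both populations, was at 5313 and 4190 (0.34). Il6st, the signalling chain of the interleukin 6 family, was at 1073 and 314 in the deficient pair (1.77) and at 877 and 782 in the wild-type pair (0.17). Prom1 (937 and 3107, -1.73) and Clca3a1 (307 and 1398, -2.19) were the lower members.

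Early lymphoid genes were at least 2-fold higher in deficient LSK in 15 of 24 cases and lower in none, with a median of 1.48. Flt3, the receptor of lymphoid-primed progenitors, was at 4433 and 521 in deficient LSK and MP (log2 3.09), and at 6679 and 1229 in wild-type LSK and MP (2.44). Rag1, part of the recombinase of antigen receptor genes, was at 749 and 74.5 in the deficient pair (3.33) and at 221 and 162 in the wild-type pair (0.44). Its partner Rag2 was at 232 and 130 (0.83). Satb1, a chromatin organiser of lymphoid cells, was at 2936 and 551 (2.41, other probe sets 2.72, 2.81 and 0.66), and Notch1 at 4787 and 974 (2.30, another 0.46). Tespa1 was at 501 and 88.7 (2.50), Ltb at 449 and 117 (1.94), Tcf4 at 2139 and 661 (1.69) and Il7r, the interleukin 7 receptor, at 424 and 166 (1.35). Deficient LSK thus carried lymphoid priming genes well above deficient MP, with Dntt, Rag1 and Notch1 further apart than in the wild-type pair; that difference between genotypes was not tested.

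The GIMAP genes encode small GTPases of lymphocytes and their precursors that lie side by side in the genome. All 8 passed the limit and 7 were at least 2-fold higher in deficient LSK, with a median of 2.72. Gimap8 was at 1041 and 76.3 (3.77), Gimap7 at 798 and 57.8 (3.79), Gimap6 at 1726 and 176 (3.29), Gimap1 at 1294 and 191 (2.76) and Gimap4 at 1297 and 202 (2.68, another probe set 4.65). Gimap9 (1.70) and Gimap5 (1.66) followed, and Gimap3, at 0.20, was the exception. These genes are alike in sequence, so probes of 1 member may read another. In wild-type cells 6 of 8 passed 2-fold, with a median of 2.32; Gimap4 was at 275 and 203 there, a log2 difference of 0.44.

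B cell genes separated the deficient populations and not, in the same way, the wild-type ones. Of 18 members 8 were at least 2-fold higher in deficient LSK and none lower (median 0.68), while in wild-type cells 1 was higher and the median was -0.31. Blnk, a B cell adaptor, had intensities of 969 in deficient LSK, 174 in deficient MP, 319 in wild-type LSK and 404 in wild-type MP (log2 2.48 and -0.34). Vpreb1, part of the surrogate light chain of precursor B cells, was at 938, 266, 518 and 655 in that order (1.82 and -0.34). Ebf1, the factor that specifies the B lineage, was at 220, 65.3, 94.8 and 112 (1.75 and -0.24), above the limit on the deficient LSK array only. Ighm, the immunoglobulin mu chain, was at 10544 and 2718 in the deficient pair (1.96), but its other probe sets ranged from -0.18 to 3.23. Pou2af1 (1.14), Fcrla (1.05), Ms4a1 (241 and 120) and Cd72 (1.44) were the remaining higher members. Pax5, which commits cells to the B lineage, was at 230 and 261 (-0.19), and Cd79a at 212 and 179 (0.25). The 3 B cell markers Cd79a, Pax5 and Ebf1 summed to 662 and 506, as given above, and the difference between genotypes was not tested.

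Of 8 plasma cell genes that passed the limit, 2 were at least 2-fold higher in deficient LSK and none lower, 3 lay below 0 and the median was 0.45, or 0.19 without the level limit. Igha, the constant region of IgA, had intensities of 2696 in deficient LSK, 523 in deficient MP, 221 in wild-type LSK and 4238 in wild-type MP. Jchain, which joins antibody units, was at 725, 126, 211 and 435 in that order. Their log2 differences between the deficient populations were 2.37 and 2.52 and those between the wild-type populations -4.26 and -1.04. Mzb1 was at 390 and 198 (0.98). In these pools Igha and Jchain, each read from 1 probe set, thus had opposite directions in the 2 genotypes. Igha had 2 other probe sets above the limit, whose values are not given here. Igha, Jchain and Mzb1 are also the 3 plasma cell markers summed above, so that sum repeats these values. Whether antibody-secreting cells entered the sorts was not tested.

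Of the genes of antigen presentation by MHC class II, 3 of 10 were at least 2-fold higher and none lower (median 0.24). H2-Ob, a modulator of peptide loading, was at 584 and 104 (2.49), Ctss, the protease that trims the invariant chain, at 5668 and 1914 (1.57), and H2-DMa at 3662 and 1382 (1.41). H2-Aa (0.90), Cd74 (0.30) and H2-Ab1 (0.18) did not reach 2-fold. Among dendritic cell genes 5 of 12 were higher (median 0.63), and 2 of these, Flt3 and Tcf4, also belong to the lymphoid list. Clec10a was at 810 and 205 (1.99), and Irf8, the factor of dendritic cells and monocytes, at 8366 and 3318 in the deficient pair (1.33) but at 4955 and 9804 in the wild-type pair (-0.98). T and NK cell genes gave 1 higher and 2 lower of 10 (median 0.09): Klrd1 was at 180 and 82.5 (1.12), and the granule genes Gzmb (218 and 498, -1.19) and Nkg7 (5137 and 10918, -1.09) were lower.

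Several factors that direct red cell fate were lower in deficient LSK. Of 26 erythroid regulators 6 were at least 2-fold lower and none higher, with a median of -0.21. In wild-type cells 5 were lower and 2 higher, and the median was 0.00. Klf1, the master factor of red cell genes, had intensities of 3035 in deficient LSK, 11681 in deficient MP, 1014 in wild-type LSK and 5856 in wild-type MP (log2 -1.94 and -2.53). Gata1, the factor that drives red cell and megakaryocyte fate, was at 1784, 5992, 1528 and 3929 in that order (-1.75 and -1.36), and Epor, the erythropoietin receptor, at 760, 2618, 600 and 1364 (-1.79 and -1.18). The lower value was in LSK for all 3 genes in either genotype, and both deficient values were above their wild-type counterparts.

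Genes of the red cell membrane and globins had a median of -0.58, with 8 of 28 members lower and none higher. Ermap, an adhesion protein of red cells, was at 2750 and 9616 (-1.81), Rhag, the Rh-associated glycoprotein, at 855 and 2447 (-1.52), Tspo2 at 1020 and 2584 (-1.34) and the water channels Aqp1 and Aqp9 at 2149 and 5039 (-1.23) and 644 and 2154 (-1.74). Another Aqp9 probe set gave -0.77. Rhd was at 2282 and 4490 (-0.98). Rhag stood at 101 on the wild-type LSK array and Rhd at 358, so the deficient LSK pool held more of both transcripts. Genes above 0 in the red cell membrane and heme synthesis lists included 3 of late red cell precursors, chosen after their values were seen. Slc4a1, the band 3 anion exchanger, was at 11215 in deficient LSK and 8481 in deficient MP (0.40), against 1289 and 2182 in wild-type cells (-0.76). Likewise Epb42, which anchors band 3, was at 826 and 706 (0.23), against 60.7 and 197 in wild-type cells (-1.70), and Alas2, the first enzyme of red cell heme synthesis, at 3028 and 2124 (0.51), against 1048 and 1970 (-0.91). None of the 3 reached 2-fold in deficient cells.

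Genes of the heme synthesis list had differences below 0 in 17 of 19 cases, of which 3 passed 2-fold, with a median of -0.32. Cpox, the only synthesis enzyme among these 3, was at 831 and 1935 (-1.22, or -0.86 averaged over all its probe sets). Blvrb, a biliverdin reductase, was at 1696 and 5409 (-1.67) and Hebp1 at 946 and 2454 (-1.38). In the iron list 4 of 14 were lower and none higher (median -0.12). Steap3, the endosomal ferrireductase that frees iron from transferrin, was at 233 and 708 (-1.61). Slc40a1, the iron exporter ferroportin, was at 1435 and 3907 (-1.44), Slc11a2, the iron importer, at 490 and 1314 (-1.42), and Tfr2 at 3475 and 8285 (-1.25). Tfrc, the transferrin receptor, was at 7004 and 12956 (-0.89). Wild-type cells gave -1.60 for Tfrc and 0.09 for Tfr2, the latter with no lower value in LSK.

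Over the 4 red cell and iron lists, 21 of 87 genes were at least 2-fold lower, and 18 of these had a promoter in the sequence table used, which comes from RefSeq on build GRCm38.p6. The 250 bases before the start were searched on both strands for AGATAA, the core letters bound by GATA factors. It was found in 2 of the 18 (11.1%), in 12 of 70 members of these lists (17.1%), in 23 of 162 lower genes (14.2%), in 38 of 366 higher genes (10.4%) and in 749 of 9900 genes with a promoter (7.57%). The 2 windows are shown because they belong to lower genes described above; capitals mark the match, which reads TTATCT on the strand printed, and begins 54 bases before the start of Epor and 45 before that of Steap3.
Epor, chr9:21963577-21963686, minus strand: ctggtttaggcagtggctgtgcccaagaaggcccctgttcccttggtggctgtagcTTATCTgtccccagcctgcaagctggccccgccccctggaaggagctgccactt
Steap3, chr1:120271081-120271190, minus strand: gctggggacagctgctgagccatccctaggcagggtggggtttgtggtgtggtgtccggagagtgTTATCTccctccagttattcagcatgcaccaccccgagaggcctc
A match describes the letters only and is not a bound site.

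Megakaryocyte and platelet genes stayed near balance, with 2 of 23 higher, none lower and a median of 0.13. Pf4, platelet factor 4, was at 1272 in deficient LSK, 2305 in deficient MP, 4338 in wild-type LSK and 4032 in wild-type MP (log2 -0.86 and 0.11). Itga2b, which encodes CD41, was at 1320 and 1427 (-0.11) and Vwf at 878 and 661 (0.41). Both deficient arrays were below the wild-type ones for Pf4 and Itga2b.

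**Figure D3:**
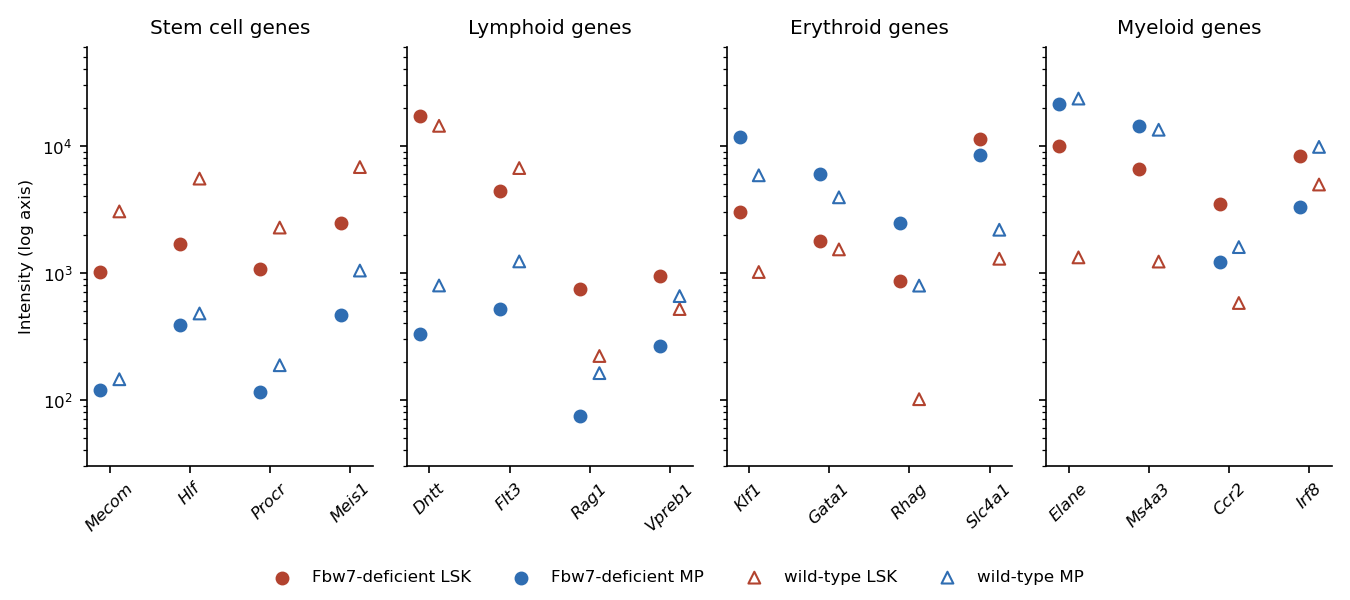
Intensity (log axis) of 4 stem cell, 4 lymphoid, 4 erythroid and 4 myeloid genes on each of the 4 arrays, 1 array a group; circles are Fbw7-deficient, triangles wild-type, red LSK and blue MP. Stem cell genes are higher in LSK in both genotypes, whereas Ccr2 and Irf8 are higher in LSK in deficient cells and lower in wild-type cells.

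Granule genes of early myeloid progenitors, which mark the MP population, were only slightly lower in deficient LSK. Of 31 such genes 4 were at least 2-fold lower, none higher, and the median was -0.18, whereas in wild-type cells 17 were lower and the median was -1.15. Elane, neutrophil elastase, had intensities of 9986 in deficient LSK, 21158 in deficient MP, 1322 in wild-type LSK and 23552 in wild-type MP (log2 -1.08 and -4.16). Ms4a3 was at 6609, 14225, 1225 and 13381 in that order (-1.11 and -3.45), and Fcgr3, an Fc receptor used to divide myeloid progenitors, at 1524, 3106, 372 and 2884 (-1.03 and -2.96). For these 3 genes the MP arrays of both genotypes were close and the LSK arrays were not. Mpo, myeloperoxidase, was at 31967 and 36278 (-0.18), Prtn3 at 26809 and 32245 (-0.27) and Ctsg, cathepsin G, at 23750 and 33747 (-0.51). These lie near the top of the intensity range. F13a1, a clotting factor subunit of monocyte progenitors, was at 6073 and 3531 (0.78), against 1035 and 6264 in wild-type cells (-2.60).

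Genes of later neutrophils leaned the other way. Of 24 members 4 were at least 2-fold higher, none lower and 22 above 0 (median 0.60), while the wild-type median was -0.69. Clec4e, a receptor for microbial glycolipids, was at 1513 and 461 (1.71), Mmp8, neutrophil collagenase, at 2223 and 955 (1.22), Padi4, which modifies histones in neutrophils, at 855 and 395 (1.12) and Adam8 at 817 and 393 (1.06). The abundant granule genes did not reach 2-fold: Ltf, lactoferrin, was at 15133 and 9563 (0.66), Camp at 19277 and 16421 (0.23) and S100a8 at 29479 and 26390 (0.16). These genes overlap the neutrophil markers, all 5 of which were higher on the deficient LSK array, and how far mature cells entered the sorts was not tested.

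Monocyte and macrophage genes had 5 of 27 members at least 2-fold higher, none lower and a median of 0.43; the wild-type median was -0.62. Ccr2, the receptor by which monocytes leave the marrow, was at 3476 in deficient LSK, 1208 in deficient MP, 578 in wild-type LSK and 1593 in wild-type MP. Its log2 differences were 1.52 and -1.46, and other probe sets gave 1.30, 1.13 and -0.21 in deficient cells. Ms4a6c was at 4578 and 1592 (1.52), Lgals3, galectin 3, at 2990 and 1227 (1.28), Cd163, a scavenger receptor, at 387 and 110 (1.81) and Ly86 at 2188 and 1112 (0.98). Csf1r, the receptor of the macrophage growth factor, was at 4281 and 2410 (0.83), against 2567 and 5624 in wild-type cells (-1.13). The macrophage markers C1qa, C1qb, C1qc, Adgre1 and Vcam1 did not share this direction, since 1 of the 5 was higher in LSK.

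The factors that direct myeloid fate differed less. Of 21 members 6 were at least 2-fold higher and 1 lower (median 0.35), and 3 of the higher ones, Klf4, Egr1 and Egr2, are also response genes described below. Spi1, which encodes PU.1, was at 1618 and 1522 (0.09). Cebpa, the factor of granulocyte fate, was at 601 in deficient LSK, 706 in deficient MP, 451 in wild-type LSK and 1416 in wild-type MP (-0.23 and -1.65). Cebpd was at 2006 and 2272 (-0.18), against 810 and 2648 in wild-type cells (-1.71), and Gfi1, a repressor of monocyte genes, at 3135 and 5013 (-0.68). Thus the genotypes differed more in the deficient MP value of Cebpa, which was low, than in its LSK value.

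Of 16 mast cell, basophil and eosinophil genes 8 were at least 2-fold lower in deficient LSK and none higher, with a median of -1.08. Of 24 members on the array, 8 did not pass the limit, and with these included the median was -0.52. Epx, eosinophil peroxidase, was at 731 in deficient LSK, 4654 in deficient MP, 992 in wild-type LSK and 1779 in wild-type MP (log2 -2.67 and -0.84). Prg2 and Prg3, which encode the major basic proteins, were at 1769 and 7800 (-2.14) and 397 and 1902 (-2.26). Ms4a2, the beta chain of the IgE receptor, was at 523 and 2407 (-2.20) and its alpha chain Fcer1a at 59.0 and 294 (-2.32), the LSK value of the latter under the limit. Csrp3 (154 and 457, -1.57) and Cma1 (89.9 and 212, -1.24) also had an LSK value under it. Mcpt8, a basophil protease, was at 1736 and 3404 (-0.97). Epx and Prg3 were further apart than in wild-type cells, where Prg3 was at 456 and 777 (-0.77), while Ms4a2 was not (642 and 2845, -2.15).

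Genes that restrain the cell cycle or keep stem cells quiet were higher in deficient LSK in 7 of 36 cases and lower in none (median 0.38). Nr4a1, an orphan nuclear receptor of quiescent stem cells, was at 4437 in deficient LSK, 889 in deficient MP, 10181 in wild-type LSK and 1357 in wild-type MP (log2 2.32 and 2.91). Klf4 was at 4497 and 1272 (1.82) and Klf2 at 5789 and 2697 (1.10). Cdkn1a, which encodes the cyclin kinase inhibitor p21, was at 1713 and 619 in deficient cells and 1873 and 801 in wild-type cells (1.47 and 1.23). Another Cdkn1a probe set gave 0.81 in deficient cells. Spry1, a brake on growth factor signals, was at 1343 and 531 (1.34) and Nr4a2 at 713 and 324 (1.14). Ccng2, a cyclin of arrested cells, was at 2255 and 976 (1.21, another probe set 0.49). Other brakes did not pass 2-fold: Cdkn1b, p27, was at 990 and 666 (0.57, another probe set 1.40), Cdkn1c, p57, was under the limit on both deficient arrays at 113 and 101 (0.17), and Foxo3 was at 1597 and 1142 (0.48). In wild-type cells 11 of 36 were higher and the median was 0.71, with Foxo3 at 1.57 and Cdkn1b at 1.09.

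Immediate early genes, which growth factors and stress induce within minutes, were higher in 11 of 33 cases and lower in none (median 0.79). Klf4 belongs to this list and to the quiescence list, and both lists have the same highest value, 2.32. The results of these lists are therefore not independent. Egr1 was at 11484 and 3335 in deficient cells and at 20981 and 7090 in wild-type cells (1.78 and 1.57). Dusp5, a phosphatase that limits ERK signals, was at 1998 and 527 (1.92), Nfkbiz at 2143 and 612 (1.81), Rgs1 at 2985 and 913 (1.71), Dusp2 at 3116 and 1070 (1.54) and Atf3 at 1134 and 462 (1.30). Fos was high on both arrays, at 30248 and 24930 (0.28), with Jun at 6032 and 3955 (0.61). The wild-type pair had 9 higher, 1 lower and a median of 0.70.

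The cell division programs did not separate the deficient populations. None of 48 DNA replication genes and none of 50 mitosis genes differed by 2-fold, with medians of 0.01 and 0.09, and the wild-type pair likewise had none. Mki67, a marker of cycling cells, was at 14714 and 13859 (0.09), Pcna at 18634 and 18662 and Mcm2 at 9558 and 9305 (0.04). Among cyclins, kinases and E2F factors 2 of 31 were higher and 2 lower. Ccnd1, cyclin D1, was at 1137 in deficient LSK, 454 in deficient MP, 885 in wild-type LSK and 976 in wild-type MP (1.33 and -0.14), with other probe sets at 1.13 and 1.39 in deficient cells. Ccnd2 was at 8359 and 5537 (0.59), and Ccnd3 differed by 0.22. E2f5 was at 1568 and 3375 (-1.11), but its other probe sets gave -0.01 and 0.34.

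Reported Fbw7 substrates had no common direction, with 3 of 26 higher, 1 lower and a median of 0.10. These values are transcripts, whereas Fbw7 acts on proteins. Ccne1, cyclin E1, was at 2553 in deficient LSK, 6673 in deficient MP, 1260 in wild-type LSK and 3445 in wild-type MP (-1.39 and -1.45; another probe set gave -1.39 in deficient cells). Myc was at 6407 and 4457 (0.52), against 5608 and 4073 in wild-type cells (0.46). Mycn (2.65), Notch1 (2.30) and Klf2 (1.10) were the higher members, all with values given above, and Ccne2 was at 1063 and 1265 (-0.25). None of the 13 genes of the SCF ligase passed 2-fold (median 0.19), and of the MYC, MAX and MXD network 1 of 11, Mycn, did. In the Notch pathway 2 of 26 were higher, Notch1 and the glycosyltransferase Mfng (1985 and 812, 1.29), with a median of -0.01, and the target gene Hes1 was at 216 and 179 (0.27).

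Interferon-stimulated genes were higher in deficient LSK, with 8 of 35 at least 2-fold, none lower, 30 above 0 and a median of 0.52. The wild-type pair had 10 higher and a median of 0.57. Oasl2, an antiviral protein of the OAS family, was at 768 and 146 in deficient cells and 956 and 130 in wild-type cells (2.39 and 2.87). Rtp4 was at 3271 and 835 (1.97) and Ifitm3, which blocks virus entry, at 7913 and 3717 (1.09). Gbp2, an interferon-induced GTPase, was at 485 in deficient LSK, 169 in deficient MP, 3121 in wild-type LSK and 555 in wild-type MP (1.52 and 2.49). Irgm2 was at 981 and 446 (1.14), Oas2 at 1207 and 515 (1.23) and Ifit1 at 209 and 98.3 (1.09). Ifi44l passed the limit on 1 array only, at 305 in deficient LSK against 44.1 in deficient MP and 35.7 and 36.1 in wild-type LSK and MP (2.79 and -0.02; another probe set gave 2.23 in deficient cells). All mice had received polyI:C, so none of the 4 arrays is an untreated control for these genes.

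The promoters of the interferon list were searched in the same way for GAAA followed by any 2 bases and GAAA again, the letters of the interferon response element. It was found in 3 of the 6 higher members with a promoter in the table (50%), in 11 of 28 members of the list (39.3%), in 22 of 366 higher genes (6.01%), in 4 of 162 lower genes (2.47%) and in 314 of 9900 genes (3.17%). The 3 windows are printed because these members were at least 2-fold higher in deficient LSK. Capitals mark the matches, which may lie on either strand and which begin 59 bases before the start in Gbp2 and 64 in Irgm2; Ifit1 has 2 matches, the one nearer the start at 85.
Gbp2, chr3:142620553-142620662, plus strand: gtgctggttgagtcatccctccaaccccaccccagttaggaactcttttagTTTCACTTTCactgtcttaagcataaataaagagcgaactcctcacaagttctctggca
Irgm2, chr11:58214863-58214972, plus strand: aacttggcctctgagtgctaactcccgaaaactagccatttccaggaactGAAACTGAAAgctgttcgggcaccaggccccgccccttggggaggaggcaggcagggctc
Ifit1, chr19:34640754-34640863, plus strand: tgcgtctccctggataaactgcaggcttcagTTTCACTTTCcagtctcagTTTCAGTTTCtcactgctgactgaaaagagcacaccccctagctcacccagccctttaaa
The other letters searched in these windows were GAGGAAGT of PU.1, CCACACCC of the CACCC box and TGANTCA of AP-1, none of which contains another. They were found in 4.37%, 4.92% and 9.56% of higher genes, 1.85%, 3.70% and 7.41% of lower genes and 3.02%, 4.24% and 5.59% of all genes with a promoter.

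Growth and energy genes lay close to balance. Ribosome biogenesis genes were below 0 in 39 of 48 cases and respiratory chain genes in 35 of 44, with medians of -0.16 and -0.12 and none past 2-fold. Ribosomal protein genes had a median of 0.02. Of the glycolysis genes 1 of 18 was higher, Aldoc, an aldolase (473 and 175, 1.44), and of the lipid synthesis genes 1 of 24 was lower, Acss2, which makes acetyl-CoA from acetate (368 and 1086, -1.56). In wild-type cells Acss2 was at 859 and 718 (0.26). Of the heat shock and metallothionein genes 2 of 16 were lower, the metallothioneins Mt1 (3346 and 10197, -1.61) and Mt2, while Hspa1a, an inducible heat shock protein, was at 2857 and 2807 in deficient cells (0.03) and 464 and 1775 in wild-type cells (-1.93).

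Adhesion and homing genes were higher in 5 of 28 cases and lower in none (median 0.20). Besides Cd34 and Esam (626 and 309, 1.02) these were Icam1, a ligand of leukocyte integrins (694 and 275, 1.33), Itgal (1682 and 816, 1.04, another probe set 0.05) and the chemokine receptor Ccr1 (610 and 284, 1.10). Cxcr4, the receptor that holds stem cells in the marrow, was at 869 and 767 (0.18). Among stromal and endothelial genes 4 of 17 were higher and 1 lower, with a median of -0.04 and a mean of 0.23. Col4a1, a basement membrane collagen, was at 802 and 105 (2.93, another probe set 0.42), Fstl1 at 239 and 58.5 (2.03) and Fn1, fibronectin, at 2842 and 1409 (1.01), while Col1a1 was at 326 and 713 (-1.13). Averaged over all their probe sets, Fn1 gave 0.90 and Col1a1 -0.61, both short of 2-fold.

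The same population difference can be read in wild-type cells, which share no array with the deficient pair. There 618 genes (5.05%) were higher and 294 (2.40%) lower in LSK by 2-fold or more, and the standard deviation across genes was 0.58. Of the higher genes 300 were higher in both genotypes, which is 63.4% of the deficient and 48.5% of the wild-type list. Of the lower genes 104 were shared, 52% of the deficient and 35.4% of the wild-type list. No gene was at least 2-fold lower in deficient LSK and 2-fold higher in wild-type LSK, and 5 genes did the reverse. Across the 12239 genes the differences correlated with a Pearson r of 0.71 and a Spearman rho of 0.63, given as a description because genes are not independent and all 4 arrays were summarised together.

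**Figure D4:**
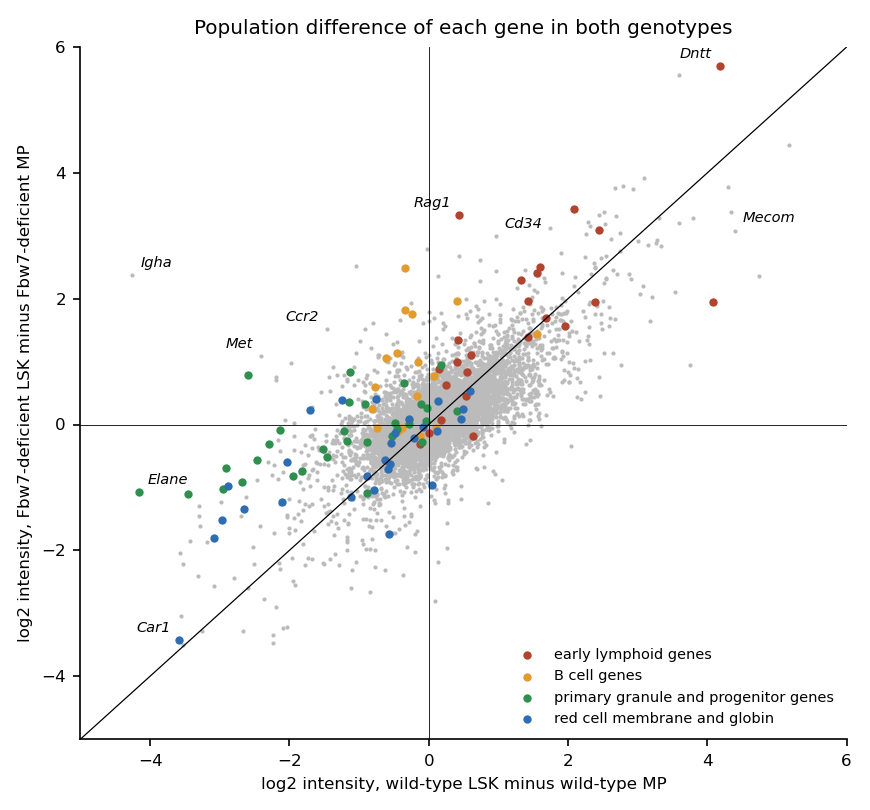
Log2 intensity of LSK minus MP for each of the 12239 genes in wild-type cells (horizontal) and Fbw7-deficient cells (vertical), 1 array a group, with 4 gene lists in colour; the diagonal marks equal differences. Most primary granule genes lie above the diagonal, with Elane at -4.16 and -1.08, while Car1 lies near it, at -3.58 and -3.43.

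Read by list median, the genotypes were alike in some programs and apart in others. Stem cell surface genes had medians of 1.01 in deficient and 1.09 in wild-type cells, red cell membrane genes -0.58 and -0.61, immediate early genes 0.79 and 0.70, and interferon genes 0.52 and 0.57. Members with a lower difference in deficient than in wild-type cells numbered 20 of 32, 11 of 28, 13 of 33 and 25 of 35 in that order. Over all genes they numbered 6118 of 12239, so close medians do not mean that the members were alike. Stem cell factors had a smaller median in deficient cells, 0.53 against 0.97, and quiescence genes 0.38 against 0.71. Early lymphoid genes went the other way, with 1.48 against 0.98. The medians had opposite signs for B cell genes (0.68 and -0.31), plasma cell genes (0.45 and -0.61), late neutrophil genes (0.60 and -0.69) and monocyte and macrophage genes (0.43 and -0.62). These differences between genotypes were not tested, since each group had 1 array.

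**Figure D5:**
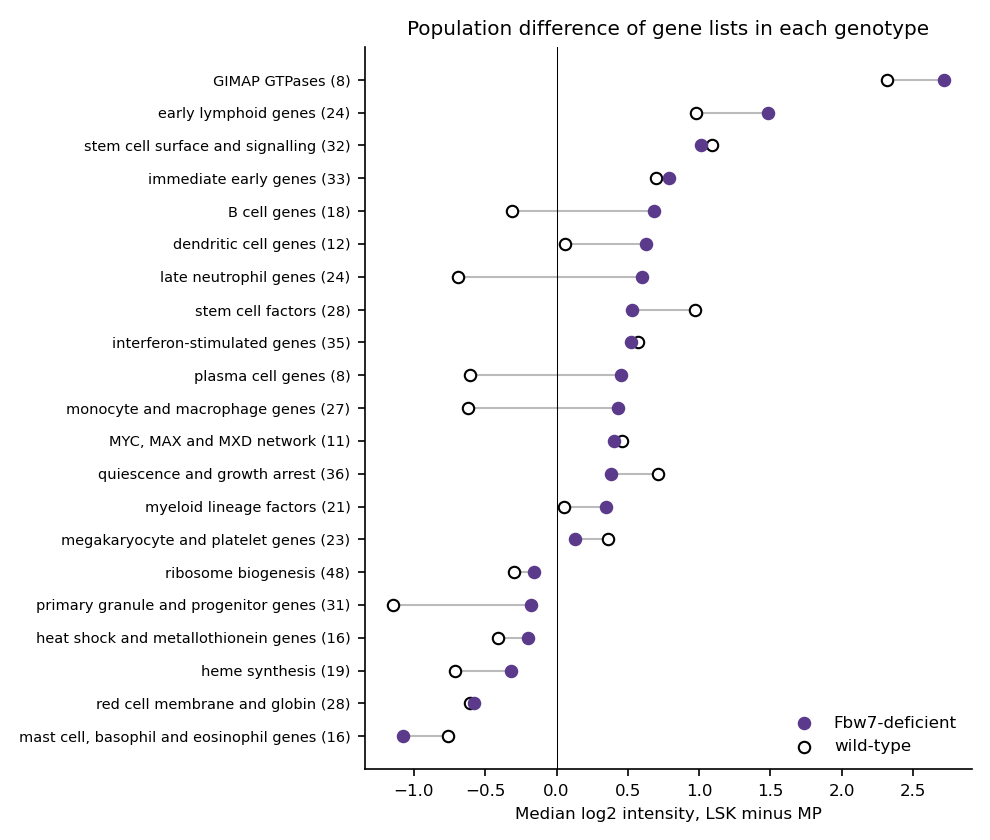
Median log2 intensity of LSK minus MP for the gene lists with the larger medians in either genotype, in Fbw7-deficient (filled) and wild-type cells (open), with the number of members in brackets. Filled and open points nearly coincide for red cell membrane genes and lie on opposite sides of 0 for B cell, plasma cell, late neutrophil and monocyte and macrophage genes.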

How the data were processed

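Per the labels' protocols, 20 ng of total RNA from each sorted pool was amplified in a 2-cycle protocol and labelled with biotin. For each probe set the authors deposited 1 intensity, on a linear scale as its range shows. The submitters' processing notes name RMA, whose version and settings are not stated there. RMA makes the arrays' distributions alike (medians 154.8 to 158.9), so differences in total RNA per cell are not seen.

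Values were taken to log2 and subtracted here with Python 3.11.15, pandas 2.3.3 and numpy 2.4.6; plots used matplotlib 3.10.9. The platform annotation gives a single gene for 34945 of 45101 probe sets, several for 932 and none for 9224, 64 controls included; 34741 symbols were updated by gene ID through a RefSeq table. Each of 18193 genes was read from the probe set whose mean log2 over the 4 arrays was highest (9010 genes had more than 1). Detection calls were not used. A difference was called at 2-fold, and no p-value was computed, as each group had 1 array.

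Genes were named by rule: the 15 largest differences each way, up to 8 per list, and a set of standard markers. For the 15, clone names were left out and all probe sets above the level limit had to move the same way. A gene with no other probe set above that limit passed unchecked. The comparison, the lists and the rule were chosen with earlier results of these data known. Promoters, from RefSeq on GRCm38.p6, were matched by symbol for 9900 of 12239 genes, and the 250 bases before the start were searched. The 7 alternatives tried concern the probe set, the level limit, an offset and the scaling.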

Additional observations from a re-analysis of the deposited data

Results flagged for a closer look

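For 5 genes the population difference was at least 2-fold in both genotypes and in opposite directions, so that the LSK value was the higher one in Fbw7-deficient cells and the lower one in wild-type cells. Igha had a log2 difference of 2.37 in deficient and -4.26 in wild-type cells, and Jchain, the second antibody gene among them, 2.52 and -1.04. Ccr2, the monocyte chemokine receptor, had 1.52 and -1.46. Met, the receptor of hepatocyte growth factor, had intensities of 1487 in deficient LSK, 696 in deficient MP, 366 in wild-type LSK and 1941 in wild-type MP, which gives 1.09 and -2.41. Cd300lb, an activating receptor of myeloid cells, was at 824, 377, 595 and 1227 in that order, which gives 1.13 and -1.04. These 5 are 1.06% of the genes at least 2-fold higher in deficient LSK. The difference between the genotypes was not tested, since each group had 1 array of pooled marrow.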

How the results depend on the processing

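Raising the call to 4-fold left 79 higher and 42 lower genes. With only the genes whose highest value reached the upper quartile of all values, fewer in each list, the medians moved to 3.03 for GIMAP GTPases, 1.84 for dendritic cell, 1.82 for early lymphoid, 1.63 for B cell, 0.93 for plasma cell, 0.90 for MHC class II, 0.76 for monocyte and macrophage and 0.59 for Hox cluster genes, 1.35 for stem cell factors and 1.01 for stromal genes. Averaging all probe sets of a gene gave 2.44 for GIMAP GTPases, 0.72 for stem cell surface and 0.98 for plasma cell genes. An offset of 50 gave 2.45 for GIMAP GTPases and 1.16 for early lymphoid genes. Without a level limit the medians were 0.69 for stem cell surface, 0.19 for plasma cell and -0.52 for mast cell, basophil and eosinophil genes, and without probe sets marked as shared between transcripts stem cell surface genes again had 0.69. The sign of a median changed only for stromal genes and for 3 lists within 0.02 of 0 (DNA replication, Notch pathway and ribosomal protein genes). Of the 473 higher and 200 lower calls, 292 and 145 remained with the mean of all probe sets, 371 and 165 with the offset and 421 and 200 after a further quantile normalization. The share of calls that were higher moved between 65.1% and 70.6% (70.3% as reported), and the median of all genes between -0.04 and 0.03. Of 304 named genes, 20 no longer passed 2-fold with the mean of all probe sets and 12 with the offset. None that had passed 2-fold and was still measured changed direction. The count of 20 leaves out named genes whose mean fell under the level limit, Ebf1, Aldoc and Fcrla among them. At 1.5-fold, 65.6% of the higher and 50.9% of the lower genes of deficient cells were shared with wild-type cells. The precision of 1 array a group is unknown, and 199 genes lay under the level limit on both deficient arrays.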
